A study of Mus musculus with 8 samples.

Results

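The 36 genes described here encode proteins of 6 DNA repair branches, and were taken from all probe sets whose gene symbol equals 1 of the 36 names. They hold 80 of the 45037 probe sets on the arrays, and 36 of the 20667 named genes. Homologous recombination has 9 of the genes, the Fanconi anaemia pathway 6, mismatch repair 3, end joining 4, base excision and single-strand break repair 8, and nucleotide excision repair 6. Where a gene is given by a single value, that of the probe set whose mean over the 8 arrays is highest, called the brightest below. RNA came from knee joint tissue, tibial plateau cartilage dissected with the bone under it, of 4 Anp32a knockout mice and 4 wild-type C57BL/6 mice. All mice were 8 weeks old, their tissue was taken directly after death and was not treated. The sources used here give neither the strain of the knockout mice nor which part of Anp32a was deleted, or in which cells. Anp32a encodes an acidic nuclear phosphoprotein, and the comparison asks which repair genes differ in joint tissue that lacks it.

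Homologous recombination repairs double-strand breaks by copying the intact sister chromatid, and so works mainly in cells that replicate their DNA, while end joining seals breaks directly at any stage of the cell cycle. The Fanconi proteins unhook cross-links between the strands and hand the break to recombination, and mismatch repair corrects errors left by the polymerase. Base excision repair replaces single damaged bases, such as those made by oxidation, and nucleotide excision repair cuts out bulky damage; both work in dividing and resting cells. Most cartilage cells of a grown joint divide rarely, whereas the marrow in the bone beneath them holds many dividing blood cell precursors.

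All values are log2 RMA values (RMA corrects background, gives all arrays the same distribution and joins the probes of each set), and every difference is knockout minus wild type on that scale. Arrays of 1 genotype correlated at 0.9906 to 0.9971 over probe sets, which are not independent, and present calls made up 57.6% to 60.1% of each array. The targeted gene checked the labels by 1 of its 3 probe sets: Anp32a probe set 1450407_a_at read 4.98, 4.05, 4.33 and 5.04 on knockout arrays 1 to 4, absent on each, and 9.95, 9.91, 9.76 and 9.91 on wild-type arrays 1 to 4. The other 2 stayed present on all 8 arrays, with differences of -0.51 and -0.45 (limma adjusted p = 0.0555 and 0.0641 over all probe sets), and whether they lie in the deleted part is not known here. The chondrocyte markers Col2a1, Acan, Sox9 and 11 more were present on all 8 arrays, as were all 15 skeletal muscle markers. On the first principal component, which held 52.8% of the variance, knockout arrays 1 to 4 lay at -11.3, -44.0, -44.5 and 11.9, and the wild-type arrays at 9.88 to 36.7, so knockout 4 lay among the wild types. For this reason the results below are also given without knockout 4, a comparison of 3 arrays with 4. Each array is 1 mouse, numbered in the file headers, and a p-value here weighs the difference of the group means against the spread between these mice only. In this mixed tissue, fewer cells of a type and less RNA per cell cannot be told apart.

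Every gene of recombination, the Fanconi pathway and mismatch repair had a knockout mean above its wild-type mean, by 0.02 for Xrcc2 up to 0.73 for Brca1, and the other branches held values on both sides of 0, from -0.34 for Xrcc5 to 0.21 for Xrcc1. No repair gene passed the test: 0 of 36 had a limma adjusted p under 0.05 (Benjamini-Hochberg over all genes), where 0.0532% of all genes passed. At an unadjusted p under 0.05, 12 of the 36 genes read higher in the knockout and 1 lower, against a background of 10.1% and 9.26% of all genes. The 12 were Brca1, Brca2, Rad51c, Rad54l and Blm of recombination, Fanca, Fancd2 and Fanci of the Fanconi pathway, Msh6 and Pms2 of mismatch repair, and Xrcc1 and Parp2 of single-strand break repair. The lower one was Xrcc5 of end joining. The 4 knockout arrays all lay above the 4 wild-type arrays for 4 genes, Fancd2, Fancc, Xrcc1 and Ercc2, and below them for 0, where 4.61% and 5.42% of all genes parted in those directions.

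By branch, the median difference was 0.36 for recombination, 0.30 for the Fanconi pathway, 0.25 for mismatch repair, -0.02 for end joining, 0.07 for base excision and single-strand break repair and 0.10 for nucleotide excision repair. Over all 36 genes it was 0.12 with 31 genes above 0, and over all 20667 genes 0.01 with 11125 above 0. The medians describe these arrays and were not tested, since the genes were chosen with earlier results known. The median SD between arrays of the repair genes was 0.14 in knockout and 0.11 in wild type. Of the 36 genes, 28 were called present on all 8 arrays, and Bard1, Rad51c and Ercc2 were absent on all 8 in their brightest probe set.

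**Figure D1:**
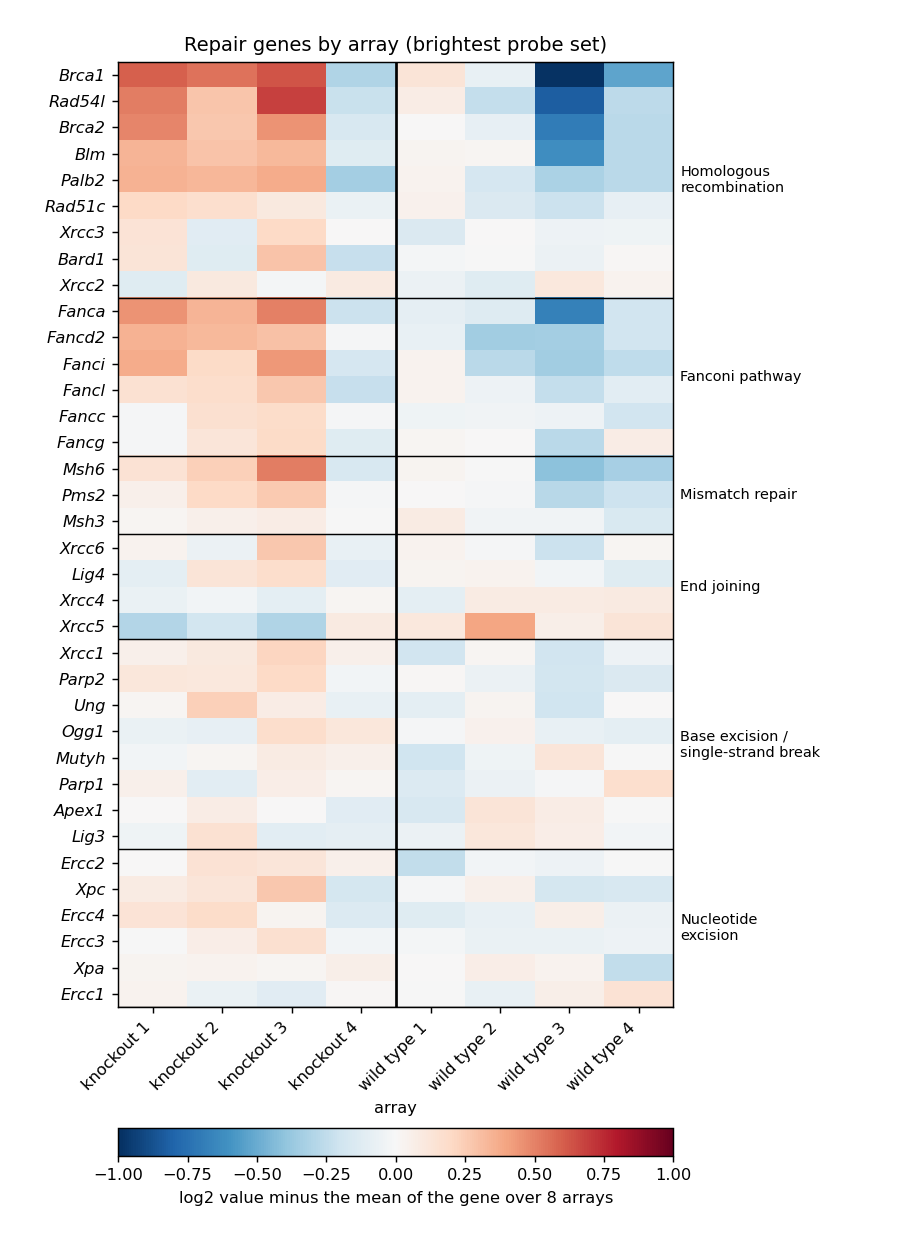
Each row is a repair gene (brightest probe set), each column an array, and the colour is the log2 value minus the mean of the gene over the 8 arrays; lines part the 6 branches, and knockout arrays stand left of wild-type arrays. In the upper 3 branches knockout 1, 2 and 3 are mostly red, while knockout 4 is pale or blue and wild type 3 is the darkest blue, as for Brca1 with 9.28, 9.22, 9.32 and 8.39 in knockout against 8.81, 8.61, 7.69 and 8.15 in wild type.

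Among the recombination genes, the widest difference was that of Brca1, which directs broken ends into recombination and holds them for resection. Brca1 read 9.28, 9.22, 9.32 and 8.39 on knockout arrays 1 to 4, against 8.81, 8.61, 7.69 and 8.15 on wild-type arrays 1 to 4. Knockout 1, 2 and 3 lay above every wild-type array, and knockout 4 fell between wild types 4 and 2, so the groups overlapped. The difference was 0.73 (95% interval 0.12 to 1.35, 1.66-fold), with a limma adjusted p = 0.197.

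Brca2, which readies single-stranded DNA for the search of the intact copy, read 8.80, 8.59, 8.77 and 8.16 in knockout and 8.33, 8.24, 7.62 and 8.04 in wild type. Rad54l, a motor protein that acts while the broken strand invades the intact duplex, read 8.80, 8.57, 8.97 and 8.06 in knockout and 8.36, 8.05, 7.46 and 8.03 in wild type. In both genes knockout 4 was the lowest knockout array and wild type 3 the lowest of all. The difference of Brca2 was 0.52 (95% interval 0.12 to 0.93, limma adjusted p = 0.184), and that of Rad54l was 0.62 (0.12 to 1.13, limma adjusted p = 0.19).

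Blm and Palb2 are given array by array as well, a choice made after their values were seen. The helicase gene Blm, whose product dissolves joined recombination intermediates, read 8.85, 8.80, 8.83 and 8.39 in knockout and 8.54, 8.53, 7.89 and 8.24 in wild type (0.42, 95% interval 0.06 to 0.77, limma adjusted p = 0.204). Palb2, which couples Brca1 to Brca2, read 8.09, 8.08, 8.11 and 7.41 in knockout and 7.78, 7.58, 7.43 and 7.48 in wild type (0.36, limma adjusted p = 0.258). Palb2 in knockout 4 was the lowest of all 8 arrays, although the other 3 knockout arrays lay within 0.05 of each other and above every wild type.

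The other 4 recombination genes gave less in their brightest probe sets. Xrcc2 and Xrcc3 act in the strand exchange step, and their differences were 0.02 (95% interval -0.15 to 0.19, limma adjusted p = 0.919) and 0.12 (-0.06 to 0.30, limma adjusted p = 0.472). The brightest probe set of Xrcc3 was present on 4 knockout and 2 wild-type arrays. Its dimmer probe set 1437623_x_at was present on all 8, with overlapping groups. That one gave 0.27 (95% interval 0.02 to 0.52, limma adjusted p = 0.246 over all probe sets). Rad51c, which works in complexes with Xrcc2 and Xrcc3, had knockout values of 7.33 to 7.60 and wild-type values of 7.19 to 7.45. These are from its brightest probe set, which was absent on all 8 arrays. The dimmer Rad51c probe set 1423026_at was present on all 8 and gave 0.12. Bard1, the partner of Brca1, was absent on all 8 arrays, at 4.64 to 5.16 in knockout and 4.82 to 4.89 in wild type, so nothing can be said of its change.

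Promoters of recombination genes are shown because several of these genes moved up and down together from array to array and E2F factors are textbook regulators of genes used in DNA replication. The 250 bases before the transcription start in RefSeq (GRCm38.p6) were searched on both strands for the E2F core motif, written as TTCCCGC or TTGGCGC or TTCGCGC or TTGCCGC, in the 32 of 36 repair genes that have an entry. A match was found in 12 of the 32 genes (37.5%), in 2435 of all 27025 genes with an entry (9.01%), and in 1900 of the 14201 of them that are measured on these arrays (13.4%). Of 40 further genes of these branches with an entry, described below and not among the 36, 14 held a match (35.0%). Of the 8 recombination genes with an entry 4 held one, of the 5 Fanconi genes 1, of the 3 mismatch genes 1, of the 4 end joining genes 3, of the 8 base excision genes 1 and of the 4 nucleotide excision genes 2. Of the repair genes that read higher at an unadjusted p under 0.05, 3 of 11 held a match, and of the other repair genes 9 of 21. The CCAAT box was found in 16 of the 32 genes (50%, against 39.4% of the measured genes), and the cell cycle homology motif, TTTGAA or TTCGAA, in 2 (6.25%, against 15.7%). A match is a string of letters and no proof of binding. Brca1 and Rad54l, the recombination genes of widest difference, held no E2F core match, nor did Palb2, Fanca and Fanci. The recombination genes with a match and the widest positive differences have these windows, written 5′ to 3′ along the gene, with the E2F core match in capitals:

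Brca2, chr5:150522371-150522620, plus strand: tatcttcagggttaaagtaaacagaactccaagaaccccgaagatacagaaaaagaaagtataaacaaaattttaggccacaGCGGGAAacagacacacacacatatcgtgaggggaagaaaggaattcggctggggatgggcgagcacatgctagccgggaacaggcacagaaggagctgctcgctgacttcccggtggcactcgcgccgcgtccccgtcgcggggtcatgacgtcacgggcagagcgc

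Blm, chr7:80534999-80535248, minus strand: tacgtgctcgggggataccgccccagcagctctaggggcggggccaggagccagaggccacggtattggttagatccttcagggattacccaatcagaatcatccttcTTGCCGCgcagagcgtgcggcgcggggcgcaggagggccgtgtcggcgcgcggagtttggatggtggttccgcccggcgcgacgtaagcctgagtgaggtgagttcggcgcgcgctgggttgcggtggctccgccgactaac

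Rad51c, chr11:87404955-87405204, minus strand: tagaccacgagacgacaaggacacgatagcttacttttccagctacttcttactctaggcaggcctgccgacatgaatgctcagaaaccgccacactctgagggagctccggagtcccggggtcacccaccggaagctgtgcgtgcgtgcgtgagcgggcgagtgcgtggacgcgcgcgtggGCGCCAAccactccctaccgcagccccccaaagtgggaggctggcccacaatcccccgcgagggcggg

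Counted from the start, with -1 as the last base before it, the match lies at -168 to -162 in Brca2, at -142 to -136 in Blm and at -68 to -62 in Rad51c. It is on the strand of the gene in Blm, and on the opposite strand in the other 2. The array values of Brca2 and Blm are given above, and the probe set that placed Rad51c here was absent on all 8 arrays. Another RefSeq window of Rad51c held no match.

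In the Fanconi pathway, Fancd2 had the smallest p of all 36 genes. Fancd2, which is ubiquitinated at stalled forks and marks cross-links for repair, read 7.91, 7.88, 7.85 and 7.55 in knockout and 7.49, 7.21, 7.22 and 7.37 in wild type. All 4 knockout arrays lay above all 4 wild-type arrays, with knockout 4 closest to them. The difference was 0.48 (95% interval 0.25 to 0.70, 1.39-fold), with a limma adjusted p = 0.159 over all genes.

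Fanci, the protein that pairs with Fancd2, read 7.97, 7.79, 8.03 and 7.43 in knockout and 7.64, 7.33, 7.25 and 7.35 in wild type. Fanca, a subunit of the core ligase complex that ubiquitinates this pair, read 8.15, 8.05, 8.21 and 7.49 in knockout and 7.61, 7.57, 7.03 and 7.51 in wild type. Knockout 4 lay inside the wild-type range in both genes, and the other 3 knockout arrays lay above it. Their differences were 0.42 for Fanci (95% interval 0.11 to 0.73, limma adjusted p = 0.178) and 0.54 for Fanca (0.14 to 0.94, limma adjusted p = 0.177).

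Fancl, the catalytic subunit of that ligase, read 8.72, 8.74, 8.84 and 8.34 in knockout and 8.60, 8.51, 8.33 and 8.46 in wild type. The groups overlapped through knockout 4 alone, and the difference was 0.18 (95% interval -0.07 to 0.44, limma adjusted p = 0.402). Fancc, another core subunit, is shown because its groups parted: 8.30, 8.47, 8.49 and 8.30 in knockout against 8.27, 8.27, 8.26 and 8.12 in wild type. Its difference was 0.16 (1.12-fold, limma adjusted p = 0.261), and its dimmer probe set 1442265_at parted as well (0.20), while the third, 1447632_at, gave -0.08 with overlapping groups. Fancg, a core scaffold subunit, gave 0.09 with overlapping groups (limma adjusted p = 0.692).

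Of the 3 mismatch repair genes, Msh6 and Pms2 read higher at an unadjusted p under 0.05 and Msh3 did not. Msh6, which recognises single mismatched bases, read 9.09, 9.18, 9.45 and 8.78 in knockout and 8.97, 8.94, 8.53 and 8.61 in wild type (0.36, 95% interval 0.02 to 0.70, limma adjusted p = 0.232). Pms2, which nicks the strand that carries the error, read 8.23, 8.37, 8.44 and 8.16 in knockout and 8.18, 8.17, 7.90 and 7.98 in wild type (0.25, 0.04 to 0.45, limma adjusted p = 0.195). In both, knockout 4 was below the highest wild-type array and the other 3 knockout arrays above it.

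Msh3, which recognises larger loops, read 8.53, 8.56, 8.59 and 8.51 in knockout and 8.59, 8.48, 8.48 and 8.36 in wild type, a difference of 0.07 (95% interval -0.08 to 0.22, limma adjusted p = 0.613). A dimmer Msh3 probe set, 1446511_at, read 6.95, 6.94, 7.05 and 6.92 in knockout and 6.61, 6.76, 6.77 and 6.67 in wild type. Its groups did not overlap, knockout 4 included, and its difference was 0.26 (limma adjusted p = 0.139 over all probe sets). Msh3 has 2 further dimmer probe sets, which gave -0.06 and 0.09 with overlapping groups.

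**Figure D2:**
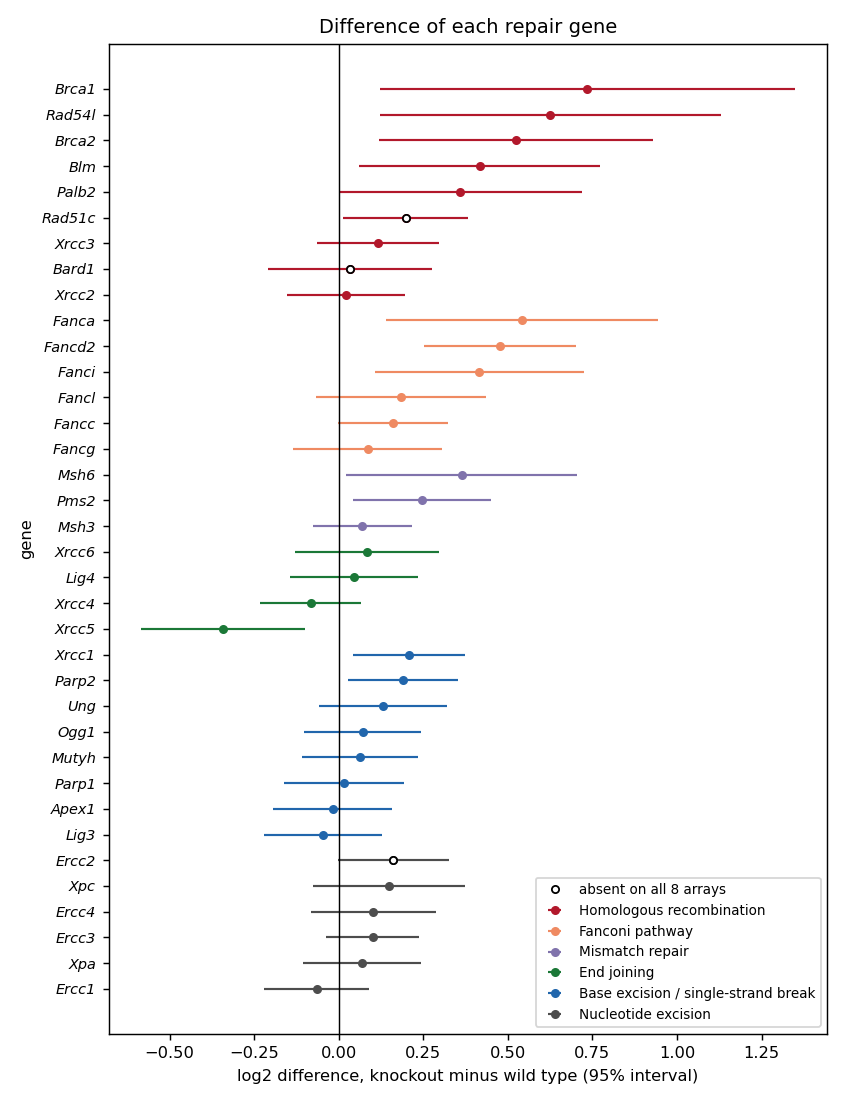
Points are the differences of the 36 genes (log2, knockout minus wild type, brightest probe set) and bars their 95% intervals from limma; colours are the 6 branches and open circles the 3 genes absent on all 8 arrays. The intervals of Brca1 (0.12 to 1.35) and other recombination genes are the widest, Fancd2 (0.25 to 0.70) lies clear of 0, and Xrcc5 (-0.58 to -0.10) lies clear of 0 on the other side.

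End joining held the 1 repair gene that read lower at an unadjusted p under 0.05. Xrcc5 encodes Ku80, which with Ku70 forms the ring that grips broken ends, and it read 7.99, 8.10, 7.98 and 8.37 in knockout and 8.38, 8.67, 8.33 and 8.41 in wild type. Knockout 1, 2 and 3 lay below every wild-type array, and knockout 4 lay just above the lowest of them. The difference was -0.34 (95% interval -0.58 to -0.10, 1.27-fold higher in wild type), with a limma adjusted p = 0.171.

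Xrcc6, which encodes Ku70, read 8.82, 8.73, 9.06 and 8.71 in knockout and 8.82, 8.78, 8.57 and 8.80 in wild type (0.08, 95% interval -0.13 to 0.30, limma adjusted p = 0.686). Whether the pair differs from each other was not tested. Xrcc4, a scaffold of the ligation step, read 7.83, 7.87, 7.80 and 7.91 in knockout and 7.80, 7.98, 7.98 and 7.99 in wild type (-0.08, -0.23 to 0.07, limma adjusted p = 0.536). Lig4, the ligase it holds, gave 0.05 with an interval of -0.14 to 0.24 (limma adjusted p = 0.821).

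In the brightest probe sets, base excision and single-strand break repair lay near no difference, apart from Xrcc1 and Parp2. Xrcc1, the scaffold that gathers single-strand break factors, read 8.62, 8.67, 8.78 and 8.62 in knockout and 8.38, 8.59, 8.38 and 8.52 in wild type. Its groups lay apart by a narrow gap, and the difference was 0.21 (95% interval 0.04 to 0.37, 1.15-fold, limma adjusted p = 0.189). Parp2, a sensor of strand breaks, read 9.70, 9.69, 9.78 and 9.55 in knockout and 9.60, 9.52, 9.40 and 9.44 in wild type, with overlap through knockout 4 and wild type 1 (0.19, 0.03 to 0.35, limma adjusted p = 0.204).

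Apex1, the endonuclease that cuts at sites left without a base, read 10.71, 10.77, 10.70 and 10.59 in knockout and 10.54, 10.83, 10.77 and 10.70 in wild type (-0.02, 95% interval -0.19 to 0.16, limma adjusted p = 0.929). Ung, which removes uracil from DNA, read 8.26, 8.48, 8.32 and 8.17 in knockout and 8.14, 8.27, 8.05 and 8.25 in wild type (0.13, -0.06 to 0.32, limma adjusted p = 0.427). For Parp1, the main break sensor, the values were 9.72, 9.57, 9.73 and 9.69 in knockout and 9.54, 9.61, 9.66 and 9.84 in wild type (0.02, -0.16 to 0.19, limma adjusted p = 0.938). The arrays of both genotypes were interleaved in all 3 genes.

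Of the genes that deal with oxidised guanine, Ogg1, which cuts it out of DNA, gave 0.07 (limma adjusted p = 0.679) and was called present on 1 array, and Mutyh, which removes the adenine set opposite to it, gave 0.06 (limma adjusted p = 0.71) and was called present on 0 arrays. Lig3, the ligase bound to Xrcc1, gave -0.05 (limma adjusted p = 0.796). The 95% intervals were -0.10 to 0.24 for Ogg1 and -0.11 to 0.23 for Mutyh, and the few present calls limit what these values can show.

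In nucleotide excision repair, no gene had an unadjusted p under 0.05. Ercc2, a helicase of the complex that opens the DNA, read 8.16, 8.31, 8.29 and 8.21 in knockout and 7.92, 8.13, 8.11 and 8.16 in wild type, with groups barely apart, but was called absent on all 8 arrays. Ercc3, the other helicase of that complex, read 8.64, 8.71, 8.80 and 8.62 in knockout and 8.62, 8.58, 8.58 and 8.59 in wild type (0.10, 95% interval -0.04 to 0.24, limma adjusted p = 0.408). Xpc, which finds the damage, read 8.98, 9.02, 9.16 and 8.72 in knockout and 8.88, 8.95, 8.72 and 8.73 in wild type (0.15, -0.08 to 0.37, limma adjusted p = 0.452).

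Ercc1, a subunit of the nuclease that cuts on the 5′ side, read 10.19, 10.09, 10.04 and 10.17 in knockout and 10.16, 10.08, 10.22 and 10.30 in wild type (-0.06, 95% interval -0.22 to 0.09, limma adjusted p = 0.666). Its catalytic partner Ercc4 gave 0.10 (limma adjusted p = 0.542), and Xpa, which verifies the damage, 0.07 (limma adjusted p = 0.69). The 3 genes had overlapping groups.

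Leaving out knockout 4 moved the count of called genes more than any other single array did. Over all 20667 genes, 11 passed with all arrays and 1786 without knockout 4. This array was picked because it lay among the wild types in these same data. The counts and adjusted p-values without it are therefore descriptive and do not replace the result with all 8 arrays. Of the 36 genes, 8 then had a limma adjusted p under 0.05, 7 of them higher and 1 lower, against 4.57% and 4.07% of all genes. The 7 were Brca1 (0.96, limma adjusted p = 0.0442), Brca2 (0.66, 0.0437), Palb2 (0.53, 0.0286), Rad54l (0.80, 0.0441), Fanca (0.70, 0.032), Fancd2 (0.56, 0.0261) and Fanci (0.54, 0.032), and the lower gene was Xrcc5 (-0.43, limma adjusted p = 0.0364). In this comparison of 3 with 4 arrays, knockout lay apart above wild type for 18 of the 36 genes and apart below it for 1, against 13.3% and 10.2% of all genes. With all 8 arrays, or with any other single array left out, 0 of the 36 genes passed.

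Knockout 4 was the lowest knockout array for 24 of the 36 genes, and for 11 of the 12 that read higher at an unadjusted p under 0.05. Wild type 3 was the lowest wild-type array for 18 of the 36 and 10 of the 12. Knockout 3 was the highest knockout array for 22 and 8 of them, and wild type 1 the highest wild-type array for 16 and 11. The same ranks were not counted over all genes, and genes that vary together are not separate observations. The 12 were chosen for higher knockout values, and knockout 4 lay among the wild types, so its rank in them partly follows from that choice. With knockout 3 left out, 4 of the 36 genes read higher at an unadjusted p under 0.05, against 5.86% of all genes, and with wild type 3 left out also 4, against 6.11%.

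The mean of the recombination genes, each centred on its own mean over the arrays, was 0.29, 0.19, 0.34 and -0.15 on knockout arrays 1 to 4 and 0.01, -0.09, -0.41 and -0.19 on wild-type arrays 1 to 4. For the Fanconi genes it was 0.22, 0.22, 0.31 and -0.13 in knockout and -0.02, -0.14, -0.32 and -0.14 in wild type. For mismatch repair it was 0.07, 0.16, 0.28 and -0.06 in knockout and 0.03, -0.02, -0.24 and -0.23 in wild type. In all 3 branches knockout 3 was the highest array and wild type 1 the highest wild type, and knockout 4 lay below wild type 1. For end joining, base excision and nucleotide excision no array mean lay further than 0.13 from 0.

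Markers of dividing cells put the 8 arrays in the same order as the recombination genes did. The mean of 15 cell cycle markers, centred in the same way, was 0.41, 0.34, 0.52 and -0.22 in knockout and 0.06, -0.09, -0.66 and -0.35 in wild type, and that of 14 DNA replication genes was 0.49, 0.34, 0.52 and -0.23 in knockout and 0.07, -0.15, -0.72 and -0.31 in wild type. The level of a list on an array was taken as the mean log2 value of its genes. For the cell cycle it ran from 9.36 to 10.10 in knockout and 8.92 to 9.63 in wild type. For replication it ran from 9.89 to 10.64 in knockout and 9.41 to 10.19 in wild type. Of the cell cycle markers 13 of 15 read higher at an unadjusted p under 0.05 and of the replication genes 11 of 14, against 10.1% of all genes, with Ccnb1 and Gins2 absent on all 8 arrays.

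Blood and muscle markers also differed from array to array. The 13 measured erythroid markers were at 0.79, 0.29, 0.52 and -0.37 in knockout and 0.26, -0.24, -0.97 and -0.28 in wild type (mean levels of 9.66 to 10.82 and 9.06 to 10.29), and Hba-a1 was absent on all 8 arrays. The 10 B cell markers were at 0.16, 0.09, 0.78 and -0.01 in knockout and -0.13, -0.40, -0.38 and -0.11 in wild type (8.45 to 9.25 and 8.07 to 8.35), with Pax5 absent on all. The 15 skeletal muscle markers were at 0.08, -1.16, -0.56 and 0.25 in knockout and 0.30, 0.21, 0.40 and 0.47 in wild type (12.71 to 14.11 and 14.07 to 14.34), with none absent. The 10 osteoclast markers were at 0.01, 0.27, 0.43 and 0.15 in knockout and -0.09, -0.19, -0.41 and -0.17 in wild type (10.43 to 10.84 and 10.01 to 10.32). Of these 10, 8 read higher at an unadjusted p under 0.05 and 5 lay apart above wild type, against 10.1% and 4.61% of all genes. Their knockout list means, knockout 4 included, lay above all wild-type ones, as did those of the B cell markers. At the same p, 6 of the 10 B cell markers read higher and 5 lay apart above. Of the 13 erythroid markers 5 read higher and 1 lower. Of the 15 muscle markers 13 read lower and 6 lay apart below, against 9.26% and 5.42% of all genes. The 8 measured osteoblast and osteocyte markers had a median difference of 0.20, with 4 higher at that p and 4 apart above, and the list means did not overlap either (11.32 to 11.62 in knockout and 11.10 to 11.25 in wild type). The 10 neutrophil markers had a median of 0.30 with 10 above 0 and 1 higher at that p (12.66 to 13.27 in knockout and 12.41 to 12.96 in wild type), and the 14 chondrocyte markers one of 0.05. No marker of these lists passed the limma test over all genes.

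**Figure D3:**
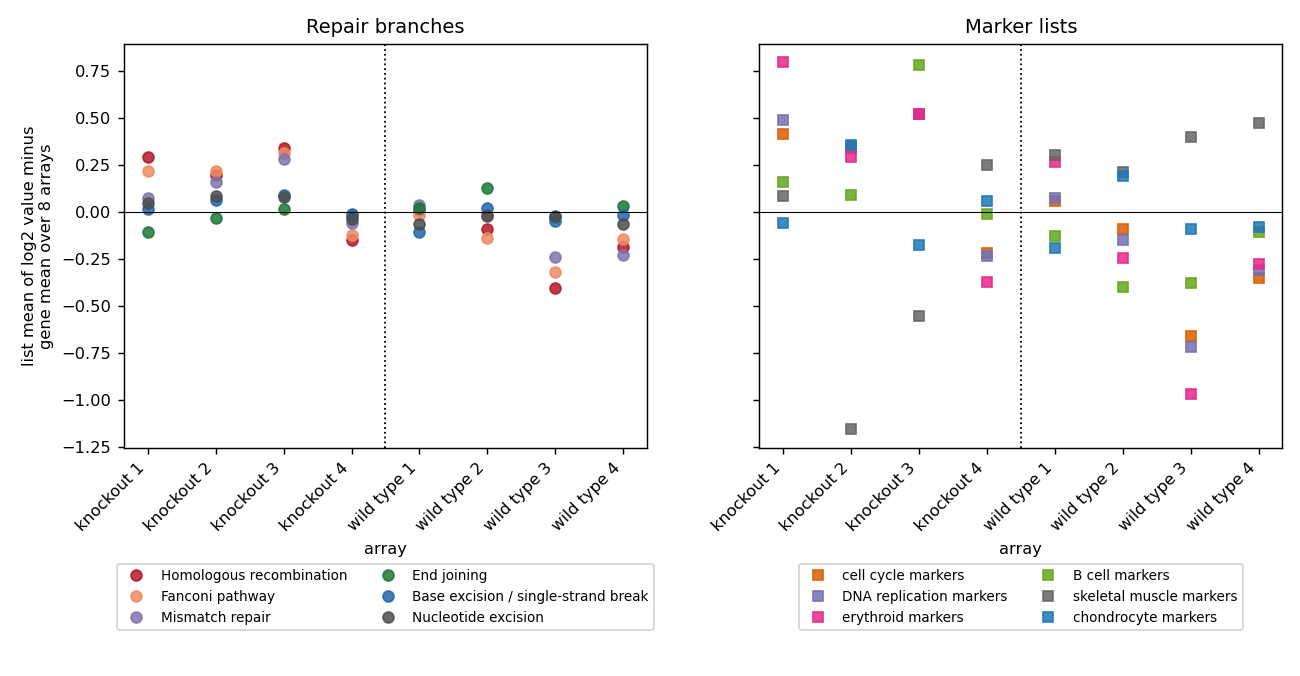
Points are list means of the log2 value minus the mean of each gene over the 8 arrays, for the 6 repair branches (left panel) and 6 marker lists (right panel), with knockout arrays left of the dotted line and wild-type arrays right of it. Recombination (0.29, 0.19, 0.34 and -0.15 in knockout, 0.01, -0.09, -0.41 and -0.19 in wild type) and cell cycle markers (0.41, 0.34, 0.52 and -0.22 in knockout, 0.06, -0.09, -0.66 and -0.35 in wild type) are high and low on the same arrays.

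With the mean of the cell cycle markers as a covariate, the median difference of the recombination genes was 0.02, that of the Fanconi genes 0.08 and that of mismatch repair 0.01. Brca1 then stood at -0.03, Rad54l at 0.02, Brca2 at 0.04, Fanca at 0.07, Fanci at 0.09 and Msh6 at -0.02, and Fancd2 stood at 0.28 (limma adjusted p = 0.86). Of the 36 genes 1, Fancd2, read higher at an unadjusted p under 0.05, against 3.35% of all genes. With the erythroid mean as covariate there were 2, Fancd2 and Ercc2, against 4.36% of all genes, and with the skeletal muscle mean 1, Fancd2 (0.38, limma adjusted p = 0.761), against 2.91%. A covariate that differs between the groups also takes up part of the genotype difference, and the part of these cells in the differences was not tested.

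Leaving out knockout 2 and 3, the arrays with the least muscle signal, left 1 gene higher at an unadjusted p under 0.05, Fancd2 (0.41, limma adjusted p = 0.626), against 3.09% of all genes; this choice was made after seeing the data. Brca1 then gave 0.52, Rad54l 0.45, Brca2 0.43 and Fanca 0.39, and Xrcc5 gave -0.27. The differences kept their sign in these 6 genes with 2 knockout arrays against 4. The 6 were named for their differences in arrays that this fit reuses, so the kept signs are no separate evidence. Bard1, Xrcc2, Fancg and Lig4 changed sign in this fit, and the recombination median was 0.19 against 0.36 with all arrays.

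**Figure D4:**
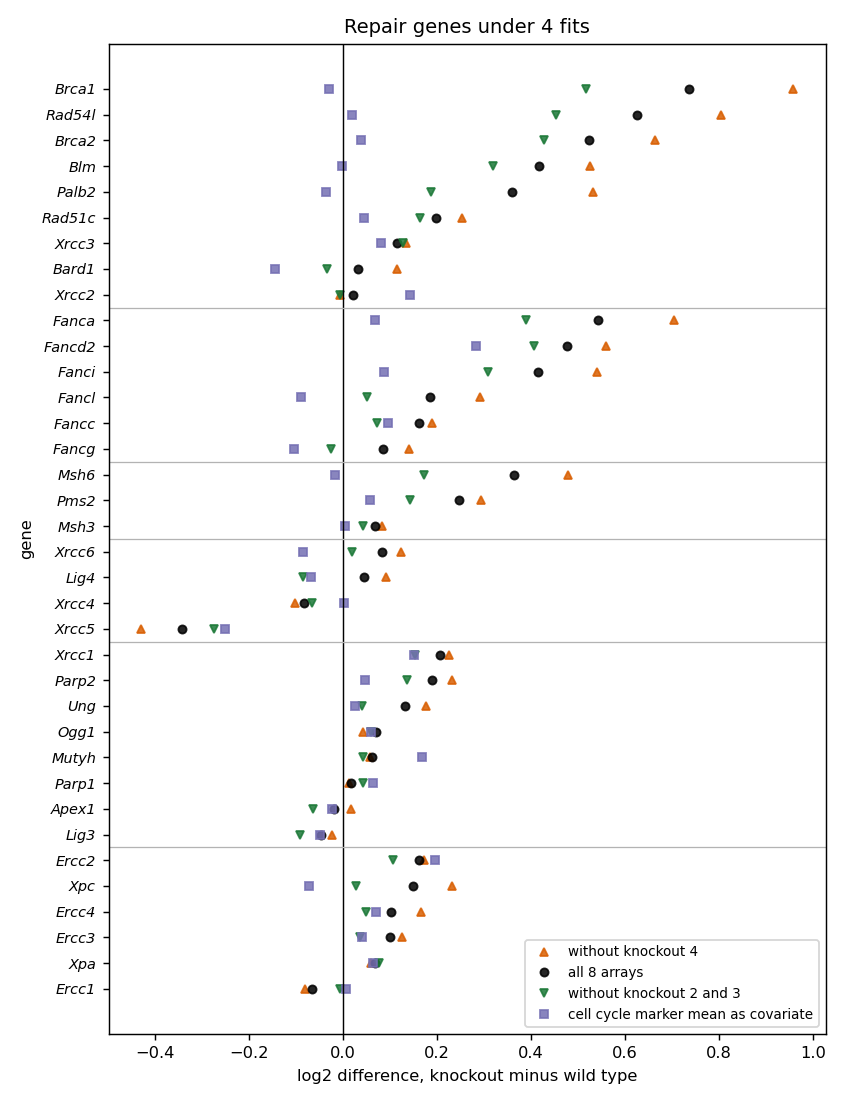
Each row is a repair gene and each symbol its difference (log2, knockout minus wild type) in 1 of 4 fits: all 8 arrays, without knockout 4, without knockout 2 and 3, and with the cell cycle marker mean as covariate; grey lines part the branches. For Brca1 the symbols lie at 0.73, 0.96, 0.52 and -0.03, for Fancd2 at 0.48, 0.56, 0.41 and 0.28, and for most excision repair genes they lie close together near 0.

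Over the 80 probe sets of the 36 genes, 0 passed the limma test with adjustment over all probe sets, against 0.0533% of all. At an unadjusted p under 0.05, 20 read higher and 2 lower, against 9.53% and 8.74% of all probe sets. Of the 36 genes, 13 had a single probe set, 11 had 2, 4 had 3, 7 had 4 and 1 had 5. The 2 lower ones belong to Xrcc5 and to Ercc1, whose dimmer probe set 1417328_at gave -0.24 (limma adjusted p = 0.192). In the authors' deposited table the lowest adjusted p among these probe sets was 0.129.

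Dimmer probe sets did not always follow the brightest. Each of the 44 further probe sets was compared with the brightest one of its gene within each array, and 0 of the 44 differences passed limma with adjustment over all 17419 such differences, against 0.0402% of all. At an unadjusted p under 0.05, 11 of the 44 passed, 10 with a smaller and 1 with a larger value than the brightest, against 16.9% of all. The smallest p belonged to Fancd2 probe set 1430916_at (absent or marginal on all 8 arrays), whose difference minus that of the brightest was -0.58 (limma adjusted p = 0.0977). Also among the 11, Fanca 1452513_a_at, Fanci 1425941_a_at and Ercc2 1442253_at were absent on all 8 arrays. Brca1 1424630_a_at and Rad54l 1453926_at had few present calls. Such values limit what the 11 can show.

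Fancd2 probe set 1438339_at, present on all 8 arrays, gave 0.49 (limma adjusted p = 0.147 over all probe sets), close to the 0.48 of the brightest. Brca1 probe set 1427698_at, also present on all 8, read 6.25, 6.17, 6.37 and 6.25 in knockout and 6.06, 6.26, 6.33 and 6.41 in wild type, a difference of -0.01 (limma adjusted p = 0.978). The other 2 dimmer Brca1 probe sets gave 0.23 and 0.26, and the 3 dimmer ones of Rad54l 0.24, 0.27 and 0.46. The sources used here do not say where each probe set lies on its transcript.

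**Figure D5:**
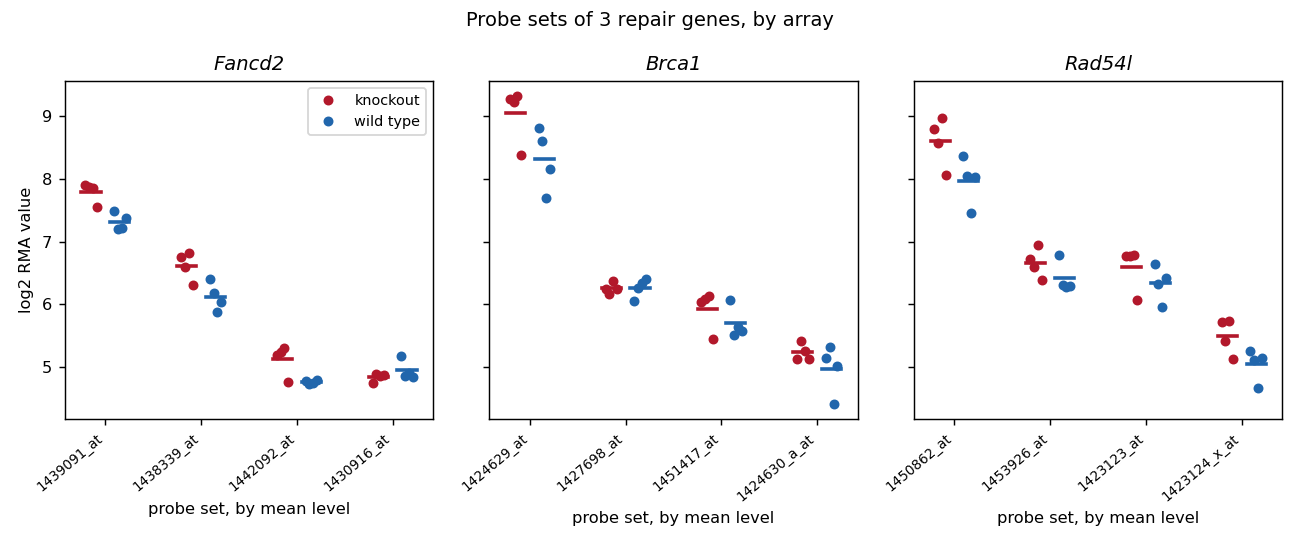
Points are the log2 RMA values of the 4 knockout (red) and 4 wild-type (blue) arrays for each probe set of Fancd2, Brca1 and Rad54l, ordered by mean level, and lines are group means. Knockout 4 is the low red point in most panels (5.45 in Brca1 1451417_at against 6.04, 6.08 and 6.13 on knockout 1 to 3), and the Brca1 probe set 1427698_at shows no gap between the groups (-0.01).

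Further genes of the same branches, 59 by name and 56 measured, were fitted alongside. In these 0 of 56 had a limma adjusted p under 0.05, against 0.0532% of all genes. At an unadjusted p under 0.05, 14 read higher and 3 lower, against 10.1% and 9.26% of all genes. The groups lay apart above for 1 and apart below for 3, against 4.61% and 5.42%, and the median difference was 0.11 with 40 of 56 above 0. By branch the medians were 0.23 for recombination, 0.20 for the Fanconi pathway, 0.08 for mismatch repair, 0.06 for end joining, 0.09 for base excision and -0.02 for nucleotide excision. Without knockout 4, 11 of the 56 passed limma, 10 higher and 1 lower, against 4.57% and 4.07% of all genes.

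The 6 of smallest p were Fancm, Parp3, Lig1, Nbn, Fen1 and Slx4. Fancm, a motor protein that anchors the Fanconi core complex, read 7.66, 7.55, 7.53 and 7.43 in knockout and 7.17, 7.31, 7.25 and 7.19 in wild type (0.31, limma adjusted p = 0.159), with groups apart. Lig1, the ligase of replication and long-patch base excision, read 10.40, 10.24, 10.51 and 9.75 in knockout and 9.86, 9.77, 9.25 and 9.62 in wild type (0.60, limma adjusted p = 0.166). Fen1, the flap nuclease that works beside it, read 11.29, 11.06, 11.26 and 10.62 in knockout and 10.78, 10.65, 10.14 and 10.58 in wild type (0.52, limma adjusted p = 0.179). Knockout 4 lay within the wild-type range of Lig1 and Fen1, as it did for Brca1 and Fanca.

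Slx4, a scaffold for the nucleases that cut cross-links and junctions, gave 0.22 with overlapping groups (limma adjusted p = 0.179), but was called present on only 1 of the 8 arrays. On the lower side, Parp3, a strand break sensor, read 10.43, 9.96, 10.03 and 10.51 in knockout and 10.60, 10.65, 10.80 and 10.82 in wild type (-0.49, limma adjusted p = 0.16). Nbn, a subunit of the complex that first binds double-strand ends, read 8.68, 8.79, 8.64 and 8.79 in knockout and 8.97, 8.96, 8.95 and 8.84 in wild type (-0.20, limma adjusted p = 0.172). In both the groups lay apart, and in Parp3 knockout 2 and 3 were the lowest arrays, as they were for the skeletal muscle markers.

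Anp32a lies on chromosome 9 in the RefSeq annotation, and 0 of the 36 repair genes lie there. They are spread over 14 chromosomes.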

How the data were processed

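The files hold 8 Affymetrix arrays, 1 per mouse. Per the submitters' processing notes and the file headers, the authors deposited log2 values per probe set made with RMA, and a table that adds detection calls and their own p-values, adjusted p-values and log2 fold changes. The authors' fold changes differed by at most 1.0e-09 from the differences computed here. The sources used here give no array design, software version or genome build. Rows without an identifier (64) and probe sets without a symbol (6889) or with a date in its place (62) were not named. Because RMA makes the arrays' distributions equal, a common shift of most genes would not show.

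The brightest probe set per gene was fitted in limma 3.58.1 under R 4.3.3 (lmFit, eBayes, genotype as only term, two-sided), with Benjamini-Hochberg adjustment over all 20667 genes at 0.05, no filter and no further normalization. Probe sets, and differences between probe sets of a gene, were fitted likewise over all of them. With 4 arrays a group, their number limits the precision. Tested on simulated data for 20667 genes, the gene test recovered 33 of 50 genes changed by 0.5 log2 and 45 of 50 by 0.75. It recovered 47 of 50 by 1 and 49 of 50 by 2, with 5 false among 179 calls. The noise was drawn independently for each gene and the changed genes were picked at random, so variation shared across an array was not simulated. Recovery of genes as variable as Brca1 is not shown. Its SD was 0.45 in knockout and 0.50 in wild type, against medians of 0.13 and 0.11 over all genes.

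Knockout and wild-type arrays share numbers 1 to 4 with no stated pairing. Deviations of same-numbered arrays correlated at 0.0891, 0.5555, -0.3869 and 0.3348, which does not exclude pairs. As none are stated, the numbers were not taken as pairs. Alternatives were a replicate block, quantile normalization again, array weights, the mean of all probe sets, presence on at least 4 of 8 arrays, eBayes with trend, marker covariates and leaving out arrays.

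The repair genes, branches, further repair genes and marker lists were chosen with earlier results of these data known. Array values are given for each gene that passes, the 3 of smallest p and the one of highest mean in each branch, and, of the further genes, the 6 of smallest p; Blm, Palb2, Fancc, Parp1 and single dimmer probe sets were added after their values were seen. Fan1, Neil2 and Tdg were not measured under those symbols. Promoter sequences are from RefSeq (GRCm38.p6), and all 36 genes were matched by symbol.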

Additional observations from a re-analysis of the deposited data

Results flagged for a closer look

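A single array lay far from the other 3 of its genotype in 7 of 84 groups of 4 arrays examined, by Dixon's ratio of the gap to the whole range (at the 95% critical value for 4 arrays); chance gives about 1 in 20. Knockout 4 was the low array in 4 of them: Palb2 (7.41 against 8.08 to 8.11, ratio 0.951), Brca1 (8.39 against 9.22 to 9.32, 0.902), Blm (8.39 against 8.80 to 8.85, 0.885) and Fancd2 (7.55 against 7.85 to 7.91, 0.844). In wild type the low arrays were wild type 1 for Xrcc4 (7.80 against 7.98 to 7.99, 0.952) and wild type 4 for Fancc (8.12 against 8.26 to 8.27, 0.926) and Nbn (8.84 against 8.95 to 8.97, 0.858). The cell cycle marker mean was also lowest of the knockout arrays in knockout 4, at -0.22 against 0.34 to 0.52, and its part in these values was not tested.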

How the results depend on the processing

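Leaving out 1 array at a time gave 0 to 8 called repair genes, with 4 to 16 higher and in every case 1 lower at an unadjusted p under 0.05. Over all 20667 genes, 1211 to 2918 then read higher and 1244 to 2491 lower at that p. These fits had 4 to 18 repair genes parted upward, 0 to 12 called probe sets, 0 to 4 called probe set differences and 0 to 11 called further repair genes. Each highest count was reached without knockout 4. Without that array, 1786 of 20667 genes, 3579 of 45037 probe sets and 614 of 17419 probe set differences were called in all. The share of all genes parted upward was then 13.3%. Medians then ran from 0.28 to 0.53 for recombination, 0.23 to 0.42 for the Fanconi pathway, 0.20 to 0.29 for mismatch repair, -0.04 to 0.01 for end joining, 0.04 to 0.09 for base excision, 0.08 to 0.15 for nucleotide excision and 0.10 to 0.17 for all 36 genes. No pairing is stated, and 3 of 8 arrays correlate best with their own number, which with so few arrays neither shows nor excludes pairs. With the replicate block 0 repair genes were called, against 4 of all 20667 genes. At an unadjusted p under 0.05, 14 were higher and 1 lower, against 2176 and 2086 of all genes. Higher genes numbered 1 with the muscle covariate, 2 with the erythroid one, 1 with the cell cycle one and 1 without knockout 2 and 3. Lower genes numbered 0 in each of these 4, where 490 to 812 of all 20667 genes read lower. Some medians moved by more than the SD of the branch mean between arrays of a genotype. These were recombination with the erythroid (0.1180) and cell cycle covariate (0.0202), and the Fanconi pathway (0.0779) and mismatch repair (0.0052) with the cell cycle one. End joining did so with muscle (-0.0847). Nucleotide excision did so with muscle (0.0274), cell cycle (0.0525), without knockout 2 and 3 (0.0426) and without knockout 4 (0.1458). Moves within that SD could be large in proportion: recombination stood at 0.1728 with muscle and 0.1863 without knockout 2 and 3, mismatch repair at 0.1184 with muscle, end joining at -0.0757 with cell cycle and -0.0747 without knockout 2 and 3, and all 36 genes at 0.0318 with cell cycle.

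Signs turned in 43 single values. With the cell cycle covariate these were Brca1 -0.0301, Bard1 -0.1441, Palb2 -0.0352, Blm -0.0020, Fancg -0.1045, Fancl -0.0886, Msh6 -0.0160, Lig4 -0.0667, Xrcc4 0.0017, Xrcc6 -0.0846, Ercc1 0.0072 and Xpc -0.0718, and with the erythroid one Bard1 -0.0940, Fancg -0.0410, Fancl -0.0009, Xrcc6 -0.0336 and Apex1 0.0027. With the muscle covariate they were Xrcc2 -0.0026, Fancg -0.0350, Lig4 -0.1025, Ung -0.0054 and Ercc1 0.0068, and without knockout 2 and 3 Bard1 -0.0343, Xrcc2 -0.0069, Fancg -0.0260 and Lig4 -0.0841, where Fancg had 0.1415 without knockout 4. Array weights gave Xrcc2 -0.0057, the mean of all probe sets Lig3 0.0271 and Ogg1 -0.0104, and quantile normalization again Apex1 0.0006. Over the fits that left out 1 array, signs turned in 6 genes, whose differences ran as Bard1 -0.0568 to 0.1157, Xrcc2 -0.0167 to 0.0653, Lig4 -0.0066 to 0.0910, Parp1 -0.0253 to 0.0751, Apex1 -0.0749 to 0.0218 and Xpa -0.0031 to 0.1023. The cause of these changes was not tested. The other single values kept their direction, and 17 passed the threshold that had not with all arrays, for Anp32a under 4 settings and for the rest without knockout 4. For Bard1, Rad51c and Ercc2 absent calls on all arrays limit what the values can show.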
